A study of Mus musculus with 12 samples.

Results

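A set of 10 transcripts of intraepithelial lymphocytes was followed in RNA from sorted epithelium of the mouse small intestine. The 10 genes, chosen by name as T-cell and cytotoxic genes carried along in an EpCAM sort, were Ptprc, Cd3e, Cd3g, Cd8a, Itgae, Gzma, Gzmb, Ccl5, Cd7 and Nkg7, and all 10 were found among the 15855 genes of the table. C57BL6/J mice, adult males by the study's methods, were sampled 24 h after sham surgery (n = 7) or after permanent middle cerebral artery occlusion, pMCAO (n = 5), in which a main artery of the brain is blocked and not reopened. The sham operation was the same surgery with no arterial occlusion, and neither group carried any other treatment or allele. Every library is a separate biological replicate in the labels and is named here by group and replicate number, and cells of the whole small intestine were sorted as live EpCAM+ cells, with no stain for the leukocyte protein CD45 described for this sort.

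Intraepithelial lymphocytes are T cells that lie between the epithelial cells of the gut, many of them CD8+ and held there by the integrin CD103 (the product of Itgae), which binds E-cadherin on the epithelium. They store granzymes in cytotoxic granules and release chemokines such as CCL5 when activated. Because they adhere to the epithelium, some are commonly collected with it when the mucosa is dissociated.

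The 10 transcripts were rare and uneven between libraries. Between 0.00228% and 0.0956% of a library's counts fell on them. None of the 10 passed the adjusted test between pMCAO and sham under any setting tried. The pMCAO libraries lay largely within the range of the sham libraries, and the 10 largely rose and fell together from library to library. Over all 12 libraries Cd3e and Ptprc lay farthest from the others, and over the 8 libraries numbered from 62 on Ptprc did.

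Total counts per library ranged from 7418730 to 31925579, and genes detected from 13386 to 15766. Mitochondrial ribosomal RNA took 14.57% to 54.51% of the counts. The labels number the libraries from 58 to 72, and an earlier analysis of these data split them into ranges 58 to 61 (pMCAO 1 and sham 1 to 3), 62 to 65 (pMCAO 2 and 3 and sham 4 and 5), 66 to 68 (pMCAO 4 and 5 and sham 6) and 72 (sham 7). The labels do not say what these ranges stand for. All 10 epithelial markers of the list (Epcam, Cdh1, Krt8, Krt18, Krt19, Krt20, Vil1, Cldn7, Cldn3 and Cdx2) were detected in every library, with a summed level of 5650 to 12965 CPM. CPM here are counts scaled to a common library size, after TMM, a correction for differences in library composition.

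The lymphocyte share of counts was lowest in sham 3, at 169 of 7418730 counts or 0.00228% (95% Wilson interval 0.00196% to 0.00265%). It was highest in sham 7, at 10797 counts or 0.0956% (0.0938% to 0.0974%), with pMCAO 2 next at 0.0913% (0.0902% to 0.0924%). The other sham libraries lay between 0.00682% and 0.0350%, and the other pMCAO libraries between 0.00555% and 0.0509%. These intervals cover counting error only. Both the lowest and the highest library were sham, so the pMCAO libraries lay within the sham range. The upper end of that range was sham 7 alone. Both pMCAO 2 and pMCAO 3 (0.0509%) lay above the next sham library, sham 4 (0.0350%). Ptprc made up much of the share in some libraries, at 81 of the 169 counts in sham 3 and 4242 of 7218 in sham 6. In bulk RNA, fewer lymphocytes and less RNA per lymphocyte cannot be told apart.

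Per kilobase of the longest annotated transcript, both granzymes and the chemokine gene stood highest and the CD3 chains lowest. Gzma, a granule serine protease, had a median of 50.4 CPM per kb over the 12 libraries, and the chemokine Ccl5 had 49.6. Gzmb followed at 15.1, Cd7 at 11.2, Ptprc at 7.62, Nkg7 at 3.13, Cd8a at 2.49, Itgae at 2.07, Cd3e at 1.54 and Cd3g at 0.827 CPM per kb. Each gene's range over the libraries overlapped that of its neighbour in this order. The ends of the order did not overlap, since the lowest library for Gzma (7.50 CPM per kb) lay above the highest for Cd3g (6.80). The length used mattered for Ptprc, whose joined exons span 18313 nt against 5740 nt for its longest transcript. By joined exons its median was 2.39 CPM per kb and Nkg7, at 3.01, stood above it.

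**Figure D1:**
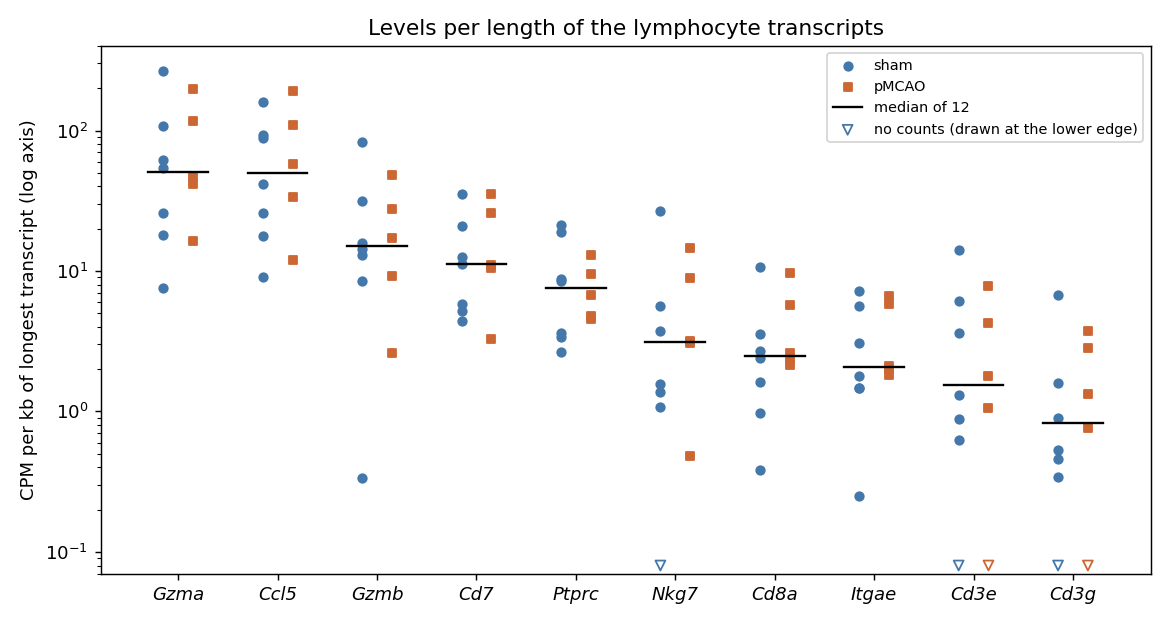
CPM per kb of the longest transcript on a log axis for the 10 genes, ordered by the median of the 12 libraries (black line), with sham libraries as blue circles and pMCAO libraries as orange squares; open triangles at the lower edge mark libraries with no counts. The medians fall from 50.4 for Gzma to 0.827 for Cd3g, and the sham and pMCAO points overlap for every gene.

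The comparison of pMCAO with sham asked whether the lymphocyte signal in the epithelial sort differed 24 h after stroke. A gene counted as called when its adjusted p (Benjamini-Hochberg) was 0.05 or lower and its log2 fold change was 1 or more in either direction, in limma-voom with the group alone, over 14462 genes that passed a filter on low counts, all 10 lymphocyte genes among them. No gene was called (0% of all genes) and so 0 of the 10. At an unadjusted limma p under 0.05 there were 1219 genes, 8.43% of those tested, and again 0 of the 10. edgeR called 0 genes and DESeq2 68, and neither called any of the 10 or gave one an unadjusted p under 0.05. Groups that did not overlap at all were seen for 0.505% of genes and for 0 of the 10. The fold change was above 0 for 9 of the 10 genes, as it was for 55.2% of all genes, and the median log2 fold change of the 10 was 0.55 against 0.06 over all genes. The 10 were measured in the same libraries and vary together, so their common direction is not that of 10 separate observations. With total-count scaling the median of all genes moved to 0.35 and that of the 10 to 0.87. In edgeR and DESeq2 the median of the 10 was 0.14 and 0.13, and 7 of the 10 were above 0 in each, against 51.4% and 50.1% of all genes.

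Cd3e and Cd3g encode chains of the CD3 complex, which carries the signal of the T-cell receptor. Cd3e (chromosome 9, 44998740 to 45009627, minus strand, GRCm38) had a level of 0 in the lowest sham library, a median of 3.31 and a highest of 36.0 CPM. In pMCAO 1 to 5 it stood at 0, 19.8, 10.9, 2.72 and 4.52 CPM. The libraries without a count, sham 3 and pMCAO 1, were both in the range 58 to 61, and 3 counts, the limit that a count of 0 allows, would be 0.723 and 0.256 CPM there. The fitted log2 difference was 0.33 ± 1.16 (SE) at an adjusted p of 0.953, although the pMCAO mean of 7.58 ± 7.92 (SD, n = 5) was below the sham mean of 9.72 ± 12.8 (SD, n = 7); the fit compares means of logs. Its sign was negative in edgeR and DESeq2, at -0.36 and -0.37. An exon of Cd3e overlaps an exon of Gm48719 on the other strand, and the sources used here do not say if counting was strand-specific. Cd3g (chromosome 9, 44969572 to 44980431, minus strand) was also without counts in sham 3 and pMCAO 1. Its sham libraries had a median of 1.35 and a highest of 17.3 CPM. pMCAO 1 to 5 gave 0, 9.46, 7.14, 3.36 and 1.92 CPM. The groups overlapped, but pMCAO 2 and 3 lay above every sham library except sham 7, the next being sham 4 at 4.07 CPM. The log2 difference of Cd3g was 1.01 ± 1.10 (SE) at an adjusted p of 0.818, with 0.18 in edgeR and 0.17 in DESeq2.

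Cd8a, the alpha chain of the CD8 co-receptor (chromosome 6, 71373427 to 71379173, plus strand), was at 1.21 CPM in the lowest sham library, 7.46 at the median and 33.4 in the highest. The pMCAO libraries 1 to 5 held 7.26, 30.1, 17.9, 6.72 and 8.14 CPM. All of these lay below the highest sham library and 3 of them near the sham median. The highest was sham 7, and pMCAO 2 and 3 lay above the next sham library, sham 4 at 11.1 CPM. The log2 difference of Cd8a, 1.00 ± 0.55 (SE), had the lowest p of the 10, with an adjusted p of 0.631. Itgae, the CD103 integrin chain (chromosome 11, 73090583 to 73147446, plus strand), ran from 0.964 CPM in sham 3 through a sham median of 6.82 to 27.9 CPM in sham 7. It gave 7.00, 25.6, 22.5, 7.76 and 8.14 CPM in pMCAO 1 to 5, again inside the sham range. Here too pMCAO 2 and 3 lay above every sham library but sham 7, the next being sham 4 at 21.5 CPM. The log2 difference of Itgae was 0.77 ± 0.52 (SE), at an adjusted p of 0.687.

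Gzma was the most abundant of the 10, and Nkg7, also of the granules, was among the scarce ones. Gzma (chromosome 13, 113093825 to 113100981, minus strand) had a lowest sham level of 7.47, a median of 53.7 and a highest of 266 CPM. Its level in pMCAO 1 to 5 was 16.3, 196, 116, 46.7 and 41.3 CPM, so that 3 of the 5 lay below the sham median. The others, pMCAO 2 and 3, lay above every sham library but sham 7, the next being sham 4 at 107 CPM. The log2 difference of Gzma was 0.30 ± 0.71 (SE), at an adjusted p of 0.928. Gzmb, a granzyme that cleaves caspases in target cells (chromosome 14, 56258838 to 56262260, minus strand), spanned 0.482 to 119 CPM in sham with a median of 20.7. It stood at 3.76, 69.3, 39.6, 13.2 and 24.6 CPM in pMCAO 1 to 5. The pMCAO mean of 30.1 ± 25.7 (SD, n = 5) was below the sham mean of 34.2 ± 39.9 (SD, n = 7), while the fitted log2 difference was 0.20 ± 0.79 (SE) at an adjusted p of 0.959 and turned to -0.18 in edgeR and -0.19 in DESeq2. Nkg7, a membrane protein of cytotoxic granules (chromosome 7, 43437073 to 43438249, plus strand), had no count in sham 3, a sham median of 1.38 and a highest of 23.5 CPM. The pMCAO libraries gave 0.427, 12.9, 7.86, 2.72 and 2.79 CPM. Nkg7 was higher in pMCAO 2 and 3 than in every sham library but sham 7, with sham 4 next at 4.94 CPM. Its log2 difference of 1.31 ± 0.89 (SE), at an adjusted p of 0.686, was the largest of the 10 by limma-voom, but edgeR gave 0.079 and DESeq2 0.065, and mean levels were close, the sham mean being 5.05 ± 8.31 CPM (SD, n = 7) and the pMCAO mean 5.35 ± 5.04 CPM (SD, n = 5).

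Ccl5 and Cd7 complete the T-cell genes. Ccl5, a chemokine stored by memory CD8 T cells (chromosome 11, 83525778 to 83530518, minus strand), ranged from 6.03 to 106 CPM in sham with a median of 27.9. pMCAO 1 to 5 held 8.03, 128, 73.3, 22.4 and 38.4 CPM. Only pMCAO 2 lay above every sham library, and the fitted log2 difference of 0.43 ± 0.67 (SE) had an adjusted p of 0.877. Cd7, a surface protein of T and natural killer cells (chromosome 11, 121036747 to 121039418, minus strand), ranged from 4.30 to 34.9 CPM in sham with a median of 11.0. In pMCAO 1 to 5 it was 3.24, 34.7, 25.5, 10.4 and 10.9 CPM. Here pMCAO 2 and 3 lay above all sham libraries but sham 7, with sham 4 next at 20.4 CPM. The log2 difference of Cd7 was 0.66 ± 0.57 (SE), at an adjusted p of 0.754. Of the 50-base windows of Cd7, 8.04% also occur in Gm11775, which overlaps it on the other strand. Ptprc, which encodes the leukocyte phosphatase CD45 (chromosome 1, 138062861 to 138175708, minus strand), was the one gene with a fold change below 0. It ranged from 15.2 to 121 CPM in sham with a median of 48.6, and was 27.4, 74.3, 54.3, 26.1 and 38.8 CPM in pMCAO 1 to 5. The fitted log2 difference was -0.15 ± 0.48 (SE), at an adjusted p of 0.950, and 0.23 with total-count scaling.

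**Figure D2:**
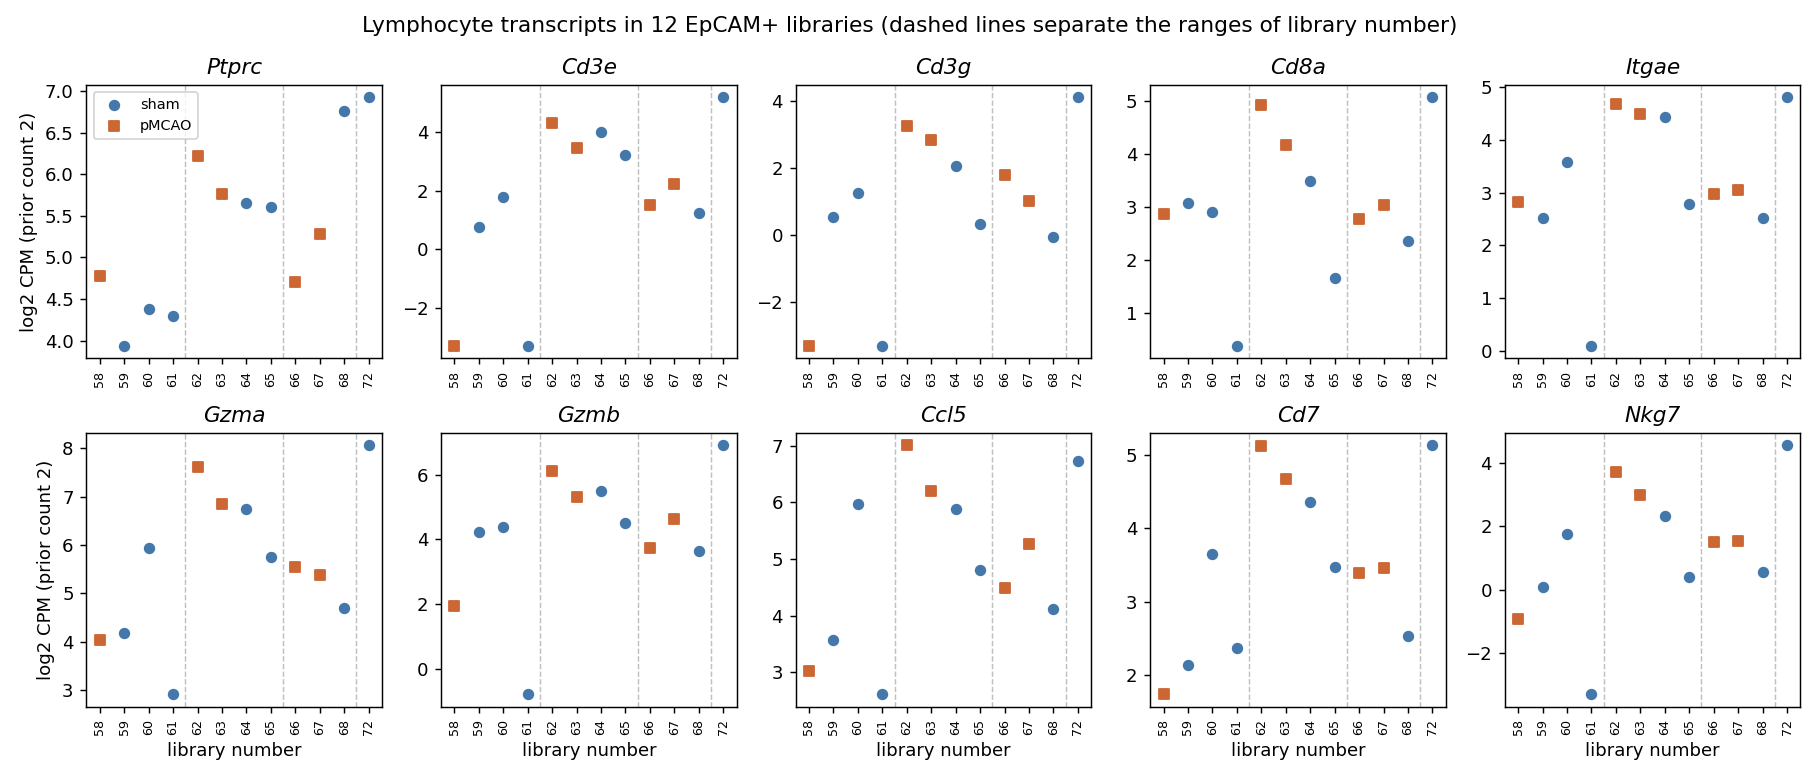
log2 CPM (prior count 2) of each gene against library number, with sham as blue circles, pMCAO as orange squares and dashed lines between the ranges of library number; libraries without a count are drawn at the value the prior count gives. Library 61 (sham 3) is lowest and library 72 (sham 7) among the highest in most panels, while Ptprc alone is high in library 68 (sham 6).

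For the granule genes Gzma, Gzmb and Nkg7, the 250 bases before their starts are shown, from RefSeq on GRCm38.p6 and written along the gene's strand. Capitals mark the letters TGTGGT or their reverse complement ACCACA, the core recognised by Runx factors, which are known regulators of CD8 T-cell and cytotoxic genes.
Gzma, chr13:113100982-113101231, minus strand: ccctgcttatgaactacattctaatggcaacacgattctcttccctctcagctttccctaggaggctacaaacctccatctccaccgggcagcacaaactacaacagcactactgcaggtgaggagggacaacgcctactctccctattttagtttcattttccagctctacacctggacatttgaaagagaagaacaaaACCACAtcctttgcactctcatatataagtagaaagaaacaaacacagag
Gzmb, chr14:56262335-56262584, minus strand: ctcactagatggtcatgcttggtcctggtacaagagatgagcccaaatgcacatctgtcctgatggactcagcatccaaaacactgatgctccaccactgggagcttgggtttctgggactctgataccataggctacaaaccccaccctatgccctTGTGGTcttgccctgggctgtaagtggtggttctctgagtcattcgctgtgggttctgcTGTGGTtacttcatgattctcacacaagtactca
Nkg7, chr7:43436888-43437072, plus strand, ending at the GENCODE gene start: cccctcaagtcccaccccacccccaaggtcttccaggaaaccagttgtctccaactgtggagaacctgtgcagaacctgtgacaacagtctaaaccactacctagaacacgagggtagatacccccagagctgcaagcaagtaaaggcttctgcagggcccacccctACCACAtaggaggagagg
The match began 50 bases before the RefSeq start in Gzma and 83 bases before it in Nkg7, and the matches in Gzmb began 93 and 34 bases before it. Promoter windows were at hand for 7 of the 10 genes (8 windows, 2 of them for Ptprc), and those 3 genes held the letters, as did 14% of all 32851 windows of this length. The letters CAGGAAGT or ACTTCCTG, a site for Ets factors, were in the windows of Ptprc and Cd3e and in 2.69% of all windows, and do not overlap the Runx core. These matches describe letters only, and their part in the levels across libraries was not tested.

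With the 4 ranges of library number as a covariate, the fold changes of most genes of the set were larger and their errors smaller. Of all genes, 47 (0.325%) were called, and 0 of the 10. At an unadjusted limma p under 0.05, 7 of the 10 were higher in pMCAO against 6.58% of all genes, and the lowest adjusted p among them was 0.167. Cd8a gave 1.43 ± 0.43 (log2 fold change ± SE) with an adjusted p of 0.167, and Nkg7 gave 1.66 ± 0.55 with 0.205. Cd7 gave 0.83 ± 0.29 (adjusted p = 0.223) and Itgae 0.94 ± 0.33 (adjusted p = 0.242). Cd3g followed with 1.60 ± 0.59, Gzma with 0.75 ± 0.29 and Ccl5 with 0.88 ± 0.35, at adjusted p of 0.264, 0.284 and 0.311. Gzmb, Cd3e and Ptprc did not pass, at 0.60 ± 0.37, 0.36 ± 0.38 and -0.34 ± 0.31. In this fit sham 7 is the only library of its range and adds nothing to the contrast. The count of 7 depended on the test and on 1 library. With the same covariate 1 of the 10, Cd8a, had an unadjusted p under 0.05 in edgeR, against 9.16% of all genes, and 1 of 9, again Cd8a, in DESeq2, against 11.3% (DESeq2 gave no p for Ccl5). The log2 fold change of Nkg7 in those fits was 0.86 and 0.81. Without sham 5 none of the 10 had an unadjusted p under 0.05 in limma-voom, against 11.7% of all genes.

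**Figure D3:**
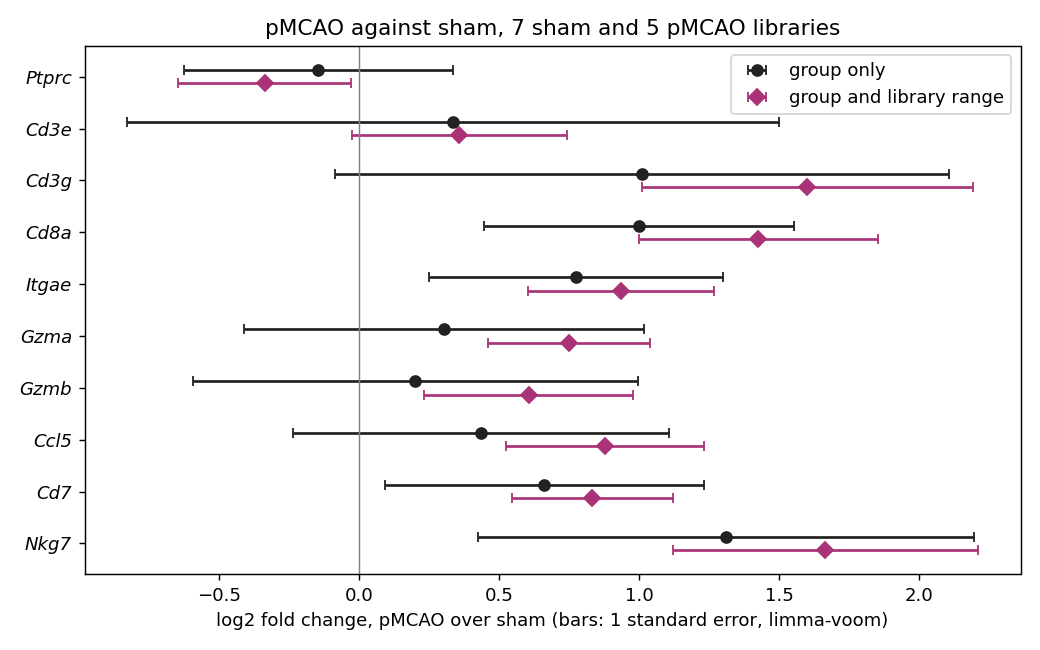
log2 fold change of pMCAO over sham for each gene with bars of 1 standard error from limma-voom, fitted on the group alone (black circles) or with the library range as a covariate (purple diamonds). In the range fit 8 of the 10 genes lie to the right of 0.5, up to 1.66 for Nkg7, against 5 with the group alone, and Ptprc lies at -0.34.

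Within single ranges the differences were not alike. In libraries 62 to 65, both pMCAO libraries lay above both sham libraries for 8 of the 10 genes, against 19.3% of all genes, the exceptions being Cd3e and Gzmb. The difference of mean log2 CPM there was 1.97 for Cd8a and 1.98 for Nkg7, and it was 0.29 for Cd3e. In libraries 66 to 68, 9 genes were higher in the pair of pMCAO libraries than in sham 6, by 0.49 (Itgae) to 1.45 (Cd3g), and Ptprc was lower, at -1.77. In libraries 58 to 61, where pMCAO has 1 library, it lay below the mean of the 3 sham libraries for 7 of the 10, with Cd3e at -3.05 and Ccl5 at -1.03. For libraries 66 to 68 and 58 to 61 the shares of all genes were not counted, and each contrast has a single library on 1 side. The pMCAO mean was above the sham mean in all 3 of these ranges for Cd8a and Itgae, that is 2 of the 10, against 16.9% of all genes.

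The ranges themselves differed in level. Mean log2 CPM was higher in the 8 libraries from 62 on than in 58 to 61 for each of the 10 genes, by 1.12 for Cd8a to 4.15 for Cd3e. The share of all genes with a higher mean in the later libraries was not counted, so these 10 cannot be set against it. No gene separated the 2 sets of libraries completely, whereas 9.4% of all genes were higher in all 8 than in any of the 4. Sham 2 was among the overlapping libraries, and its levels of Ccl5 (62.4 CPM) and Gzma (61.3 CPM) exceeded those of several later libraries. The summed level of the epithelial list went the other way, at 10316 to 12965 CPM in libraries 58 to 61 and 5650 to 9090 CPM in the later ones. Not all genes of that list followed the sum. Krt19 was at 25.15 to 47.0 CPM in libraries 58 to 61 and at 100 to 200 CPM in the later ones. Krt18 was at 117 to 247 CPM and 236 to 578 CPM. Genes detected numbered 13386 to 14712 in libraries 58 to 61 and 15343 to 15766 in the later ones, and mitochondrial ribosomal RNA took 34.8% to 54.5% and 14.6% to 35.2% of counts. The part of epithelial transcripts and of library quality in the lymphocyte difference was not tested.

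Ptprc departed from the other 9 genes in sham 6, library 68. Their summed level there was 76.2 CPM, the lowest of the 8 later libraries, while Ptprc reached 109 CPM, second to the 121 CPM of sham 7. The ratio of Ptprc to Cd8a counts was 21.5 in sham 6, against a median of 3.78 over the 11 libraries with at least 10 counts of both. Other genes named as pan-leukocyte split in the same library. Rac2 stood at 68.3 CPM, the phosphatase Ptpn6 at 55.3 CPM, and the exchange factor Vav1 at 39.7 CPM, each the highest of the 12 libraries. In contrast, Cd52, a small glycoprotein of lymphocytes, was at 1.61 CPM and the lysosomal protein Laptm5 at 0.742 CPM, each the lowest of the 12. Besides these and Ptprc, all genes of the list but Cytip lay below their mean over the 12 libraries in sham 6. Lcp1 was at 7.68 CPM against a mean of 18.2 CPM, and Coro1a at 1.10 CPM against 4.59 CPM.

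Tuft cells are chemosensory epithelial cells, and some of those in the mouse gut are known to carry CD45. A list of 12 tuft cell genes, added after the values were seen, had a summed level of 1418 CPM in sham 6 and 602 CPM in the next library, pMCAO 4. The tuft kinase gene Dclk1 was at 369 CPM and the tuft transcription factor gene Pou2f3 at 36.6 CPM in sham 6. All 12 of the genes were in the table and 11 were tested. The summed level was 24.2 to 66.5 CPM in libraries 58 to 61 and 320 to 1418 CPM in the others, or 24.2 to 1418 CPM in sham and 37.7 to 602 CPM in pMCAO. Ptprc was lowest in the 3 sham libraries of the range 58 to 61, at 15.2 to 20.7 CPM. It stood at 27.4 CPM in pMCAO 1, of the same range, where the tuft sum was 37.7 CPM, and at 26.1 CPM in pMCAO 4, where the tuft sum was 602 CPM. Of the 11, 0 had an unadjusted limma p under 0.05 with the group alone, against 8.43% of all genes. With library ranges 3 were lower in pMCAO at that level, against 6.17% of all genes. Sham 6, where the list was highest, is the only sham library of its range. The part of tuft cell transcripts in the Ptprc values was not tested. Without sham 6, the log2 fold change of Ptprc was 0.10 with the group alone and 0.44 with library ranges.

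**Figure D4:**
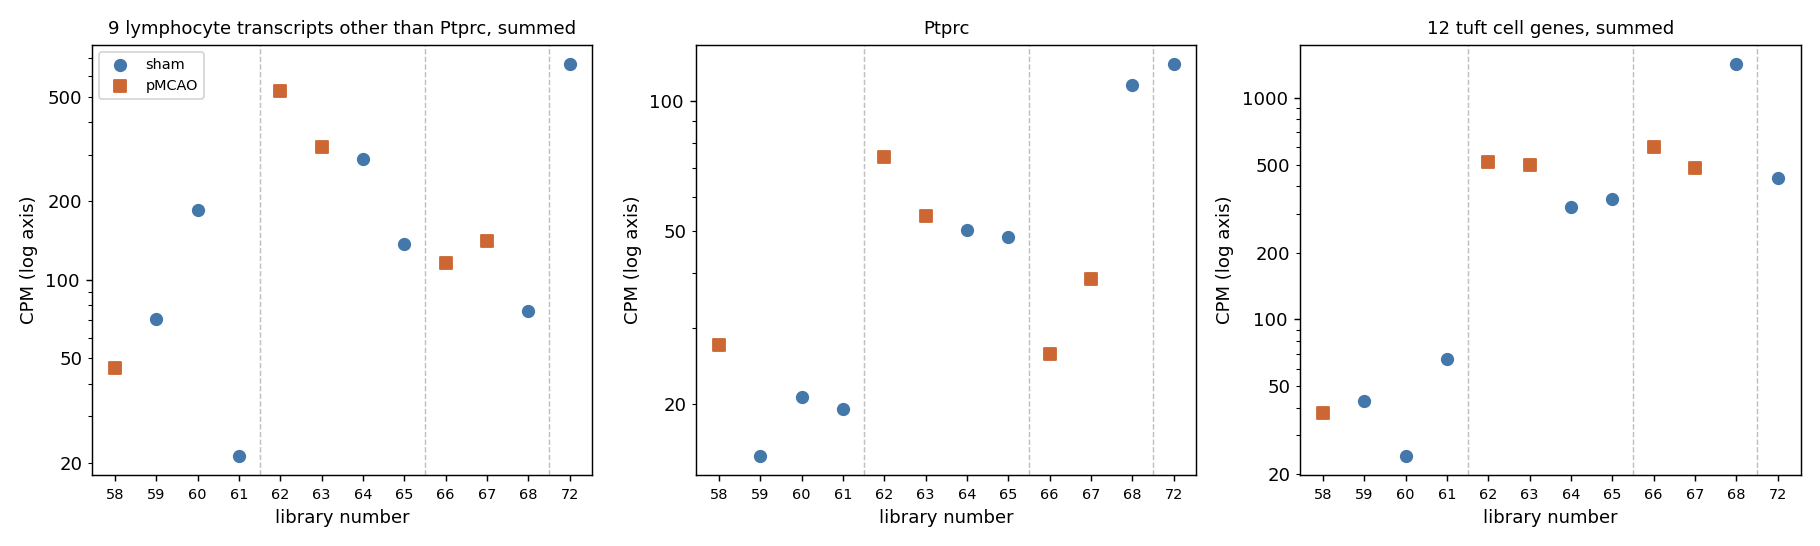
Summed CPM of the 9 lymphocyte transcripts other than Ptprc (left), CPM of Ptprc (middle) and summed CPM of 12 tuft cell genes (right) by library number, on log axes, with sham as blue circles and pMCAO as orange squares. Library 68 is low on the left (76.2 CPM) and high in the middle (109 CPM) and on the right (1418 CPM).

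Ratios of counts were taken for 7 pairs among the other 9 genes, over libraries with at least 10 counts of both, and in 6 of them the log2 ratio varied less between libraries than the log2 CPM of its first gene. The ratio of Gzma to Ccl5 counts lay between 0.983 and 2.51 in the 12 libraries, with a median of 1.56. Its log2 values had an SD of 0.40 across libraries, while log2 CPM of Gzma had an SD of 1.53. The ratio of Gzmb to Gzma ranged from 0.230 to 1.04 over 11 libraries and that of Itgae to Cd8a from 0.676 to 2.23. Gzma to Cd8a ranged from 2.16 to 17.5 over 11 libraries, and Cd3e to Cd3g from 0.810 to 7.95 over 10. The pair that was as variable as its first gene was Cd8a to Cd3e, at 0.333 to 5.25 with an SD of 1.10 on the log2 scale. Median ratios in sham and pMCAO were 1.53 and 1.58 for Gzma to Ccl5, 0.420 and 0.417 for Nkg7 to Cd8a, and 1.58 and 1.72 for Cd8a to Cd3e. Those of Gzma to Cd8a were 8.09 and 6.47, of Gzmb to Gzma 0.436 and 0.343, of Cd3e to Cd3g 2.34 and 1.81, and of Itgae to Cd8a 1.35 and 1.00. These ratios were not tested between the groups.

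As a measure of likeness, each gene's centred log2 CPM was set against the mean of the other 9 by the root mean square difference over the 12 libraries. It was smallest for Gzma (0.34) and Ccl5 (0.48) and largest for Cd3e (1.38) and Ptprc (1.26). This measure takes in the size of a gene's swings, and the SD of log2 CPM was largest for Cd3e, at 2.71. Cd3e had no counts in sham 3 and pMCAO 1, where the prior count sets its log2 CPM. Over the 8 later libraries, where all genes had counts, Ptprc was farthest at 1.03 and the rest lay between 0.23 and 0.61. Of the genes outside the set, the 10 nearest to its mean profile were Rhoh, Cracr2b, Hsh2d, Fxyd5, Top2a, Traf5, Gimap6, Trgv2, Dennd4a and Cxcr6, at distances of 0.48 to 0.64 against a median of 1.62 over the other 14452 tested genes. Rhoh encodes a GTPase of blood cells, Trgv2 a variable segment of the gamma T-cell receptor, Cxcr6 a chemokine receptor of tissue-resident lymphocytes and Top2a the topoisomerase of dividing cells. Log2 fold changes of these 10 lay between -0.17 (Hsh2d) and 1.08 (Rhoh), with adjusted p of 0.748 and above. Nearness of profile over libraries that share depth and composition is a description only.

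Of 28 T-cell receptor and signalling genes, Cd3e, Cd3g and Cd8a included, 21 were in the table and 17 were tested. With the group alone 0 passed the adjusted test, and the median log2 fold change was 0.99. At an unadjusted limma p under 0.05, 1 was higher and 0 lower, against 4.66% and 3.77% of all genes. The 1 was Lat, a membrane adapter of T-cell receptor signalling, with a sham mean of 0.807 ± 0.688 CPM (SD, n = 7) and a pMCAO mean of 1.83 ± 0.990 CPM (SD, n = 5). Its log2 difference was 1.66 ± 0.67 (SE), at an adjusted p of 0.526. The 3 most abundant others were Trdc, the constant part of the delta receptor chain, with 0.99 ± 0.67, the adapter Lcp2 with 1.00 ± 0.92, and Trac, the constant part of the alpha chain, with 0.16 ± 0.77 (log2 fold change ± SE). Transcripts of both receptor lineages were thus present, with mean levels of 5.14 CPM for Trdc and 3.85 CPM for Trac. With library ranges 5 of the 17 were higher at an unadjusted p under 0.05, against 6.58% of all genes, and 0 passed the adjusted test. Of the 5, 2 were Cd3g and Cd8a, already counted above.

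Cytotoxic effectors and natural killer receptors gave 12 of 20 genes in the table and 11 tested. None passed with the group alone, adjusted or at an unadjusted limma p under 0.05 (8.43% of all genes). The median log2 fold change was 0.42. Ctsc, the protease that activates granzymes, was the most abundant besides the granzymes at a mean of 27.4 CPM, with a log2 fold change of -0.08 ± 0.38 (SE). Klrd1, a natural killer receptor chain, gave 0.74 ± 0.65 and Srgn, the core protein of granule proteoglycan, 1.02 ± 0.59. With library ranges 4 were higher at an unadjusted p under 0.05, Gzma and Nkg7 of the 10 among them, and 1 was lower, against 6.58% and 6.17% of all genes, and 0 passed the adjusted test. The lower one was Serpinb9, an inhibitor of granzyme B, at -1.32 ± 0.54 (SE).

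Chemokine, homing and residence genes gave 24 of 26 in the table and 23 tested, with a median log2 fold change of 0.55. Again 0 passed the adjusted test. At an unadjusted limma p under 0.05, 1 was higher and 1 lower, against 4.66% and 3.77% of all genes. Runx3, a transcription factor of CD8 and resident T cells, was the higher one, with 1.92 ± 0.77 (SE) on the log2 scale and an adjusted p of 0.525. Prdm1, which encodes the transcription factor Blimp-1 of plasma cells, T cells and some epithelia, was the lower one. Its sham mean was 96.1 ± 50.7 CPM (SD, n = 7) and its pMCAO mean 42.8 ± 35.9 CPM (SD, n = 5). The log2 difference was -1.28 ± 0.48 (SE), at an adjusted p of 0.505. Prdm1 did not follow the lymphocyte genes, being at 141 CPM in sham 3, where they were lowest, and at 29.7 CPM in sham 7, where they were highest. The aryl hydrocarbon receptor Ahr gave -0.25 ± 0.24 and the integrin chain Itga4 0.60 ± 0.42. With library ranges 4 were higher at an unadjusted p under 0.05, of which Ccl5, Itgae and Cd7 belong to the 10 and Runx3 does not, and 1 was lower, against 6.58% and 6.17% of all genes.

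Of the IL-2 and IL-15 receptor chains and kinases, through which IL-15 sustains intraepithelial lymphocytes, 7 of 8 were in the table and 6 were tested. None had an unadjusted limma p under 0.05 with the group alone or with library ranges, against 8.43% and 12.7% of all genes. The median log2 fold change was 0.76. Il15ra gave 0.26 ± 0.47, Il2rb 0.77 ± 1.12 and Stat5b 0.75 ± 0.45 (log2 fold change ± SE). All 16 pan-leukocyte genes were tested, with a median of 0.08. Of these, 2 were higher at an unadjusted limma p under 0.05, against 4.66% of all genes. They were Laptm5 (1.27 ± 0.57, adjusted p = 0.581) and the phosphatase Ptpn7 (2.13 ± 1.00, adjusted p = 0.592). With library ranges the median of the 16 was -0.11, and 1, Laptm5, was higher at that level, against 6.58% of all genes. The actin bundler Lcp1 gave -0.34 ± 0.46, Rac2 0.11 ± 0.69 and Ptpn6 0.01 ± 0.49.

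The epithelial side of the contact was also read. Of 17 epithelial partner genes 15 were in the table and 13 were tested, with a median log2 fold change of 0.27 and 0 passing the adjusted test. Cdh1, which encodes the E-cadherin that CD103 binds, had a sham mean of 573 ± 178 CPM (SD, n = 7) and a pMCAO mean of 465 ± 142 CPM (SD, n = 5), a log2 difference of -0.29 ± 0.25 (SE). Il15 gave -0.29 ± 0.31 and the butyrophilin-like gene Btnl2 -0.05 ± 0.31. At an unadjusted limma p under 0.05 there was 1 gene, against 8.43% of all genes. It was Ccl28, a mucosal chemokine, with a sham mean of 2.57 ± 2.67 CPM (SD, n = 7) and a pMCAO mean of 6.11 ± 2.38 CPM (SD, n = 5). The log2 difference was 2.01 ± 0.74 (SE), at an adjusted p of 0.504.

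Markers of other cells that an EpCAM sort could hold were read by their summed level. B and plasma cell genes, 9 of 10 in the table, summed to 17.6 to 116 CPM in sham and 29.7 to 132 CPM in pMCAO. Macrophage and dendritic cell genes, 11 of 13 in the table, summed to 16.7 to 82.6 CPM in sham and 22.6 to 47.5 CPM in pMCAO. The highest sum was in sham 7, as it was for the lymphocyte genes. Only Lyz2, Fcer1g and Tyrobp of that list were highest there, at 25.1, 22.4 and 12.7 CPM. Csf1r was highest in pMCAO 2 and C1qb in sham 3. Mast cell genes, 3 of 6 in the table, reached 25.9 CPM in sham and 14.6 CPM in pMCAO. Neutrophils were represented by S100a9 alone, at no more than 2.22 CPM, and stroma and endothelium by Pecam1 alone, at no more than 5.24 CPM. Red cell genes, 3 of 5 in the table, summed to at most 25.1 CPM. With the group alone 0 genes of these lists or of the epithelial list passed the adjusted test. At an unadjusted limma p under 0.05 there was 1, the dendritic cell integrin gene Itgax, against 8.43% of all genes. The part of these other cells in the lymphocyte values was not tested.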

How the data were processed

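RNA from FACS-sorted EpCAM+ cells was sequenced by the authors as paired-end reads after removal of ribosomal RNA by cleavage, aligned to GRCm38 with STAR and assigned to genes with featureCounts. Strand use was not stated. The deposited counts are whole, unnormalised counts per gene. The deposited CPM values are those counts divided by the library total, as checked on all 190260 values (within 0.001), and were not used further. The deposited log2 fold changes and p-values hold the authors' own comparison and were not used. All sample columns were matched by name. Low genes had been removed before deposit, since no gene had fewer than 4 samples at 0.5 CPM.

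Genes were kept with filterByExpr (minimum count 10), which left 14462 and removed 1393. Under R 4.3.3, TMM scaling by edgeR 4.0.16 was followed by limma-voom (limma 3.58.1) with the group as the only term and Benjamini-Hochberg adjustment over all genes. Calls needed an adjusted p no higher than 0.05 and a log2 fold change no smaller than 1 in size. The study corrected for the day of tissue collection, which the labels do not give, so ranges of the library number were an alternative covariate. The edgeR quasi-likelihood test, DESeq2 1.42.0, other scalings, no filter and leaving out each replicate were also run. log2 CPM used a prior count of 2. The fits were tested on simulated data.

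After TMM scaling of total counts of 7418730 to 31925579, 3 counts stood at 0.069 to 0.723 CPM. Replicate pairs differed beyond sampling noise, the lowest chi-square being 17.72 per degree of freedom. Same-numbered samples of the groups correlated at -0.239 to 0.398 in their deviations, so the numbers were not taken as pairs. Coordinates are from GENCODE vM21 on GRCm38. The 10 genes, the gene lists and the library ranges were chosen with earlier results of these data known, and the tuft cell list after these values were seen. Besides the 10, genes were named as the 3 most abundant of each list, those with an unadjusted p under 0.05, and the 10 nearest in profile. Genes named for sham 6, Serpinb9, Itgax and the tuft cell genes were picked from their values. The innate lymphoid marker list is not reported here.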

Additional observations from a re-analysis of the deposited data

Results flagged for a closer look

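Levels of the 10 genes and their share of counts were searched for samples far from the rest of their group by the ratio of the gap to the whole range, in 22 groups of values. Chance alone would give about 1.1 such samples, and 2 were found. Gzmb had a log2 CPM of -0.78 in sham 3, where the remaining sham samples averaged 4.86 ± 1.17 (SD, n = 6). That value rests on 2 counts, or 0.482 CPM, less than the 0.723 CPM of 3 counts in that library. The lymphocyte share of counts was 0.0956% in sham 7, where the remaining sham samples averaged 0.0171% ± 0.0123 (SD, n = 6).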

How the results depend on the processing

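None of the 10 genes was called under any of 39 alternatives, and the lowest adjusted p was 0.127 (Cd8a, library ranges without pMCAO 3). Of 390 fold changes recomputed, 367 kept their sign and 23 turned. The count of all genes called, 0 in the main comparison, was 68 with DESeq2, 1 with limma-trend, 18 with sample quality weights, 3 with total-count scaling, 156 with the library number and 47 with library ranges as a covariate, and 21 and 115 with the ranges in edgeR and DESeq2. Leaving out single libraries gave 0 to 17 with the group alone, with 5 without sham 7, 8 without pMCAO 1 and 17 without pMCAO 3. With library ranges it gave 4 (without sham 6) to 86 (without pMCAO 3), and 6 without pMCAO 1. With the replicate number as a replicate block over samples 1 to 5 of each group 259 genes were called and 0 of the 10, with Ptprc at 0.40 and Cd3e at -0.16. The cause of these differences was not tested.

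Cd3e turned to -0.36 in edgeR, -0.37 in DESeq2, -0.20 in limma-trend, and -0.16 and -0.42 with ranges in edgeR and DESeq2. Gzmb turned to -0.18 in edgeR and -0.19 in DESeq2, and Ptprc to 0.23 with total-count scaling. Without single libraries, the lowest and highest log2 fold changes were -0.51 and 1.07 for Cd3e, -0.24 and 0.77 for Gzmb, -0.11 and 0.95 for Gzma, and -0.58 and 0.44 for Ptprc. At an unadjusted limma p under 0.05, leaving out single libraries gave 0 to 2 of the 10 genes with the group alone, the 2 without sham 7 (11.8% of all genes) and without pMCAO 1 (14.1%). With library ranges it gave 0 (without sham 5, 11.7% of all genes) to 8 (without sham 1, 11.8%). Genes at 0 to a few counts in a library have levels set by counting error there. In sham 3 these were Cd3e, Cd3g and Nkg7 at 0 counts, Gzmb at 2, Itgae at 4 and Cd8a at 5.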
